A study of Schizosaccharomyces pombe with 2 samples.

Results

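The genome annotation deposited with the ChIP-seq libraries of Schizosaccharomyces pombe lists the stretch of each mRNA that follows the stop codon, the 3' untranslated region (3' UTR). All lines of this type on chromosomes 1, 2, and 3 were taken, 4805 of the 33839 lines of the file. They belong to 4753 of the 5155 genes with an mRNA line. Pairs of genes that face each other with their 3' ends (convergent pairs) were taken as neighbouring mRNA lines, ordered by their start, of which the first lies on the plus and the second on the minus strand. This gave 1404 of 5152 neighbouring pairs. The series has 2 libraries, both H3K9me2 ChIP from swi6∆ cells, which lack the HP1 protein Swi6, grown in YES medium (replicates 1 and 2). The file holds no read or enrichment value of either library, so that all values here are positions, lengths, and counts of the annotation, with no replicate error. No samples were compared and no test was made, and genes or pairs are not replicates.

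The 3' end of an mRNA is made by cleavage of the nascent RNA, followed by addition of a poly(A) tail. In many eukaryotes the cleavage machinery recognizes the hexamer AAUAAA, or a variant of it, a short way before the cleavage site, and A- and U-rich elements around it. RNA polymerase continues beyond this site until an exonuclease catches up with it. Where genes converge, transcription of one can run into the other and give complementary RNAs, and in fission yeast cohesin is known to be found at many such sites. Several genes of the RNAi pathway, which forms heterochromatin from double-stranded RNA, are themselves convergent.

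Sequences at 3' ends are shown first, since the ends define all values that follow. They were read from the RefSeq sequence (ASM294v3), whose chromosomes have the same lengths as those of the deposited file. Of 4749 genes with a 3' UTR wholly beyond the coding sequence, 4748 (99.98%) had a stop codon at the annotated coding end on this sequence. For the genes of the study, of RNAi and heterochromatin, and of the core histones that have AATAAA in the last 30 bases, these bases end at the annotated 3' end. They are written 5' to 3' on the strand of the gene, with the hexamer in capitals.
cid14: agtaaactcgaataccagtAATAAAttaat
ura4: taaacaccttgggAATAAAaagtaatttgc
hrr1: gctttaataAATAAAaatattatcataaac
htb1: tcatttcAATAAActgaaacttgagtcgtg
hhf1: cacactttAATAAActtaattatcacgttt
The first base of the hexamer lay 11 bases before the end in cid14+ (chr1:324100-324129, plus strand), where the end base counts as 1. It lay 17 bases before it in ura4+ (chr3:115589-115618, minus strand) and 21 in hrr1+ (chr3:2034176-2034205, plus strand). In hrr1+ another AATAAA overlaps the marked one and begins further from the end, and the distance given is that of the marked one. In the histone genes htb1+ (chr3:1413648-1413677, plus strand) and hhf1+ (chr1:4698773-4698802, minus strand) the distances were 23 and 22 bases. cid14+ encodes a poly(A) polymerase of the nuclear surveillance machinery, hrr1+ a helicase of the RNA-dependent RNA polymerase complex, and ura4+ the decarboxylase used as a reporter of silencing.

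The other sequences are the plus strand at the 2 pairs of these lists whose mRNAs overlapped by 20 bp or less, with the shared bases in capitals.
emc5 and rad50: agagaatccaagtCAATttataaagactat
cdc13 and dsh1: tcctttttttaTTAATCAAtagtagatcga
The 4 bases shared by emc5+ and rad50+ (chr1:3791740-3791769 for the sequence shown) are 3' UTR of both genes. The 8 bases shared by cdc13+ and dsh1+ (chr2:423258-423287) are 3' UTR of cdc13+, which encodes the mitotic cyclin, and the last coding bases of dsh1+, an RNAi factor for which the file lists no 3' UTR.

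Annotated 3' UTRs were short in most genes and had a long upper tail. The median length per gene was 262 bases, with quartiles of 149 and 467 bases and a range from 3 to 5911. In 437 genes (9.19%) the length was 1000 bases or more. For comparison, the median was 173 bases for the 5' UTRs of 4700 genes and 1134 bases for the coding sequences. Chromosome 3 had the highest median of the 3 chromosomes, 326.5 bases in 860 genes, against 251 in 2153 genes of chromosome 1 and 254.5 in 1740 genes of chromosome 2. The medians of the plus and the minus strand were 272 and 254 bases. These differences were not tested.

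The length moved with the source that the file names for a 3' UTR. Most of them, in 3870 genes, cite a transcriptome reference, and their median was 285 bases. In 670 genes the line refers to a sequenced mRNA record, and the median was 176 bases with a maximum of 946. A further 152 genes have ends that the file describes as set by hand from transcriptome data and possibly not exact, with a median of 171 bases. Thus no 3' UTR taken from an mRNA record reached 1000 bases. The genes differ between sources, so that gene content and method cannot be told apart here.

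**Figure D1:**
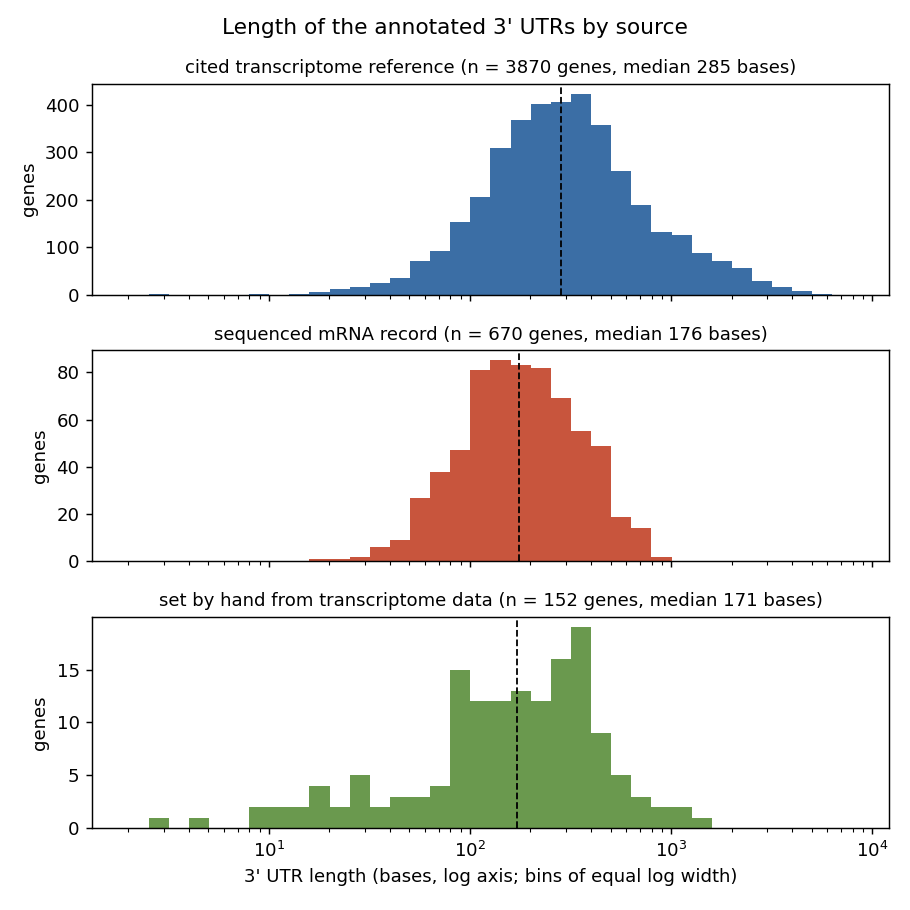
Histograms of 3' UTR length in bases (log axis, bins of equal log width) for the genes of the 3 largest sources, with the number of genes on the vertical axis and a dashed line at the median. The medians are 285, 176, and 171 bases, and lengths beyond 1000 bases are found mainly with the cited transcriptome reference.

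The longest 3' UTR was that of prp17+ (SPBC6B1.10), which encodes a splicing factor, with 5911 bases (chr2:2653485-2659395). SPCC320.06 followed with 5636 bases, and alp41+, which encodes a small GTPase needed for microtubules, with 4918 bases in 2 lines. The next were str2+ (4877 bases, a siderophore transporter), wdr70+ (4497), prm1+ (4473), bet4+ (4338), swi1+ (4233, a replication fork protection protein), esf2+ (4119), and msw1+ (4074). Of these 10 genes, 8 are convergent and 2, SPCC320.06 and wdr70+, have a gene of the same strand as their neighbour by start. The 3' UTR of wdr70+ (chr1:1673685-1678181, minus strand) still spans the whole mRNA of tit1+ (chr1:1673840-1675661) on the plus strand. At the other extreme, SPAC1687.23c and dph5+ had 3 bases, lea1+ had 4, and SPBC685.03 had 8. The ends of dph5+, lea1+, and SPBC685.03 are among those set by hand.

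Splicing within 3' UTRs was rare in the annotation. It listed several 3' UTR lines for 50 genes, and 2 of them, vrp1+ and wtf6+, had 3 lines. Of the 52 stretches between such lines, 51 began with GT and ended with AG, and their median length was 53.5 bases (37 to 203). The 3' UTRs of these 50 genes had a median of 1344.5 bases. In all 27 of them on the plus strand the mRNA line of the file ended at an earlier 3' UTR line than the outermost one, by 89 to 2225 bases (median 740), and in 0 of 23 on the minus strand. RefSeq places the end at the outermost base in all 27 genes. Since 23 of these genes are in convergent pairs, the overlaps of these pairs, given from the mRNA lines below, are shorter than those of the full 3' UTRs, with a median of 362 bp from the mRNA lines and 1642 bp from the outermost bases. The number of overlapping pairs changes by 1, from 855 to 856.

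No 3' UTR line was listed for 402 genes (7.80%). Within 50 kb of the ends of chromosomes 1 and 2 this was so for 40 of 70 genes (57.1%). It was also so for 11 of 13 Tf2 retrotransposon genes and for 9 of 25 wtf genes, a family of meiotic drivers. Genes without a line had a median coding length of 663 bases, against 1167 bases in those with one. For 4 further genes the line was placed in a position that cannot be a 3' UTR of the mRNA listed. That of plb3+ covers coding bases, that of dmc1+ lies before the coding sequence, that of vma13+ lies in an intron, and that of SPBC2A9.13 is on the other strand. They are counted in the lengths and left out of all sequence values.

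Convergent mRNAs overlapped in most pairs. Of the 1404 convergent pairs, 855 (60.9%) shared at least 1 base, 10 abutted with no base between them, and 539 were separated. The share was 13.6% for 2342 pairs of the same strand (tandem) and 21.1% for 1406 pairs ordered minus then plus by start (divergent). The divergent class also holds pairs in which the 3' UTR of the minus-strand gene runs past the whole facing gene. An example is dhp1+ (chr1:3356144-3361083) with SPAC26A3.11 (chr1:3356375-3357902). Such overlaps of 3' ends are not counted as convergent here, and their number was not taken. It differed little between the chromosomes, with 60.3%, 61.9%, and 60.2% on chromosomes 1, 2, and 3. The overlap had a median of 177 bp and quartiles of 72 and 1026 bp, and reached 7816 bp. In 450 of the 855 pairs (52.6%) it was under 200 bp and in 220 (25.7%) it was 1000 bp or more. The gaps had a median of 170 bp. In 44 of the 539 separated pairs (8.16%) the mRNA of another gene extends into the gap. A further 34 overlaps, counted only where the plus-strand gene starts first, join genes that are not neighbours by start.

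**Figure D2:**
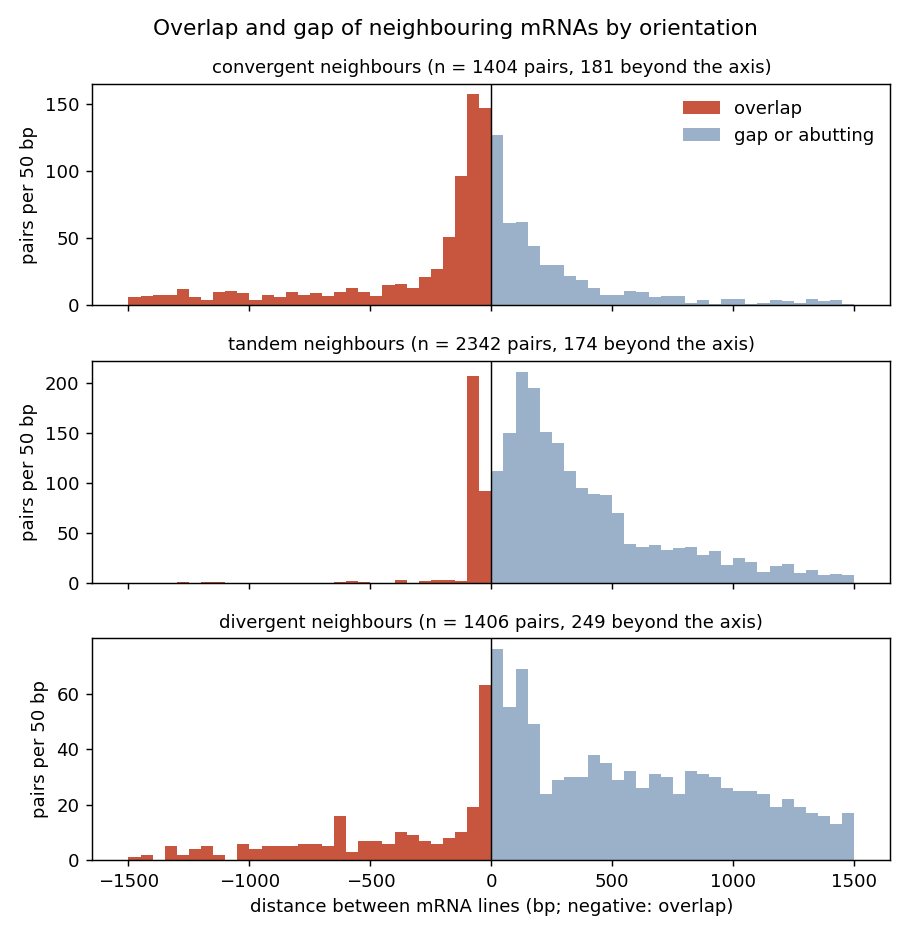
Histograms of the distance between neighbouring mRNA lines (bp, bins of 50 bp, negative values are overlaps) for convergent, tandem, and divergent pairs, with pairs per bin on the vertical axis and pairs beyond 1500 bp not drawn. Overlaps make up 60.9% of convergent, 13.6% of tandem, and 21.1% of divergent pairs.

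Overlap moved with the presence and source of the 3' UTR lines. With a line for both genes, 820 of 1259 pairs (65.1%) overlapped, with a line for 1 of them 35 of 140 (25%), and with none 0 of 5. In dsh1+, which has no line, the mRNA line ends with the coding sequence. Where this is so, fewer overlaps follow by construction. When both lines cite the transcriptome reference the count was 622 of 866 (71.8%). When 1 line cites it and the other an mRNA record it was 131 of 245 (53.5%), and when both come from mRNA records it was 5 of 42 (11.9%). The genes differ between these sources too, so that the part of the source in the share of overlapping pairs cannot be told apart from that of the genes.

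The space between the stop codons varied as well. In 1257 pairs with both 3' UTRs in place, its median was 409 bases (quartiles 255 and 676), and the summed length of both 3' UTRs had a median of 586 bases. For 3' UTRs without a break, the mRNAs overlap where this summed length exceeds the space between the stop codons. The share of overlapping pairs is therefore tied to the space by construction. Of 65 pairs with less than 100 bases between the stop codons, 64 overlapped. The share was 92.6% of 108 pairs at 100 to 199 bases, 78.6% of 411 at 200 to 399, 65.0% of 277 at 400 to 599, 43.8% of 201 at 600 to 999, 27.3% of 121 at 1000 to 1999, and 18.5% of 54 at 2000 bases or more. The median summed length was 1693 bases below 100 bases of space, 401 bases at 200 to 399, and 713 bases at 600 to 999. In 20 pairs the coding sequences run past each other's stop codons, and all of them overlap by construction.

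Beyond the sharing of untranslated bases, many 3' UTRs reached the coding sequence of the facing gene. In 439 pairs (31.3%) the overlap did not place a 3' UTR on coding bases. In 280 pairs (19.9%) 1 of the 3' UTRs covered coding bases of the partner, and in 136 (9.69%) both did. These were 552 of 2658 3' UTRs (20.8%), with a median of 521.5 coding bases covered (quartiles 134.5 and 1071.25). In 177 of them the whole coding sequence of the facing gene was covered. The share of 3' UTRs that reached coding bases was 22.8% among those citing the transcriptome reference and 5.04% among those from mRNA records. In all, 529212 of 2041122 bases of 3' UTR (25.9%) lay opposite a coding base of any gene, and 0.0855% over a coding base of the same strand alone. The A+T content was 61.2% in the bases opposite coding sequence, 70.01% in those over no coding base, and 60.3% in the coding sequences themselves. It was 72.0% in the 2654 3' UTRs below 300 bases and 64.0% in the 437 of 1000 bases or more.

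The longest overlap, 7816 bp, was that of prp17+ (chr2:2651044-2659395) with fab1+ (chr2:2651580-2659459), which encodes a phosphoinositide kinase. Here each 3' UTR covered the whole coding sequence of the other gene, 5799 bases of fab1+ and 1677 bases of prp17+, with 60 bases between the stop codons. rad3+, the ATR checkpoint kinase gene, and swi1+ overlapped by 6260 bp, with 67.5% of the swi1+ and 58.0% of the rad3+ coding bases covered. ams1+, which encodes an α-mannosidase, and dhd1+ overlapped by 5533 bp and covered each other entirely, as in the prp17+ pair. The others of the 10 longest were msw1+ and peg1+ (4831 bp), rrp2+ and nta1+ (4445), prm1+ and lys1+ (4417), esf2+ and lvs1+ (3899), sid1+ and inp53+ (3865), adl1+ and SPBC713.07c (3784), and vid21+ and sws2+ (3763). In 7 of these 10 pairs more than 50% of both coding sequences was covered, and in the other 3, prm1+ and lys1+, esf2+ and lvs1+, and sid1+ and inp53+, the coverage was one-sided. The 3' UTR of prm1+, a gene of cell fusion during mating, covered all 4260 coding bases of lys1+, a lysine biosynthesis gene, whereas that of lys1+ was 86 bases long and covered 31 coding bases of prm1+. Likewise, sid1+, a kinase gene of the septation initiation network, covered 3576 coding bases of inp53+ and inp53+ covered 0 in return. Among the 10 largest coverages were also alp41+ over mug62+ (4197 coding bases, 97.9%) and prp3+ over uso1+ (3204 bases, 100%), of which uso1+ has no 3' UTR line.

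In other pairs the ends met within a base. The 10 pairs that abut include pis1+ and rtf2+, saf5+ and mrpl1+, cao1+ and cbm1+, gpi17+ and SPAC1F12.10c, and pmk1+, a MAP kinase gene, and orm1+. Overlaps of a single base were found for ubc7+ and yar1+, pma2+ and spt2+, and mug170+ and pal1+. The widest gap, 4630 bp, was between SPAC977.17 and SPAPJ695.02 near the left end of chromosome 1. Of the next 4, the gaps of rpb7+ and eft201+ (4509 bp), mde3+ and tim50+ (4475 bp), and SPAC26A3.11 and Tf2-4 (3644 bp) are entered by the mRNA of another gene, tcb3+, sec31+, and dhp1+, respectively. For fio1+ and dal2+ (3937 bp) no other mRNA line was found in the gap. mde3+ and Tf2-4 have no 3' UTR line, so that their gaps are measured from their stop codons.

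Of the 24 RNAi and heterochromatin genes listed, 15 (62.5%) were in a convergent pair and 10 of these (66.7%) overlapped their partner, beside 54.5% and 60.9% for all genes. The median 3' UTR was 193 bases in the 23 genes with a line, beside 262. Within the RNAi genes, the overlap was largest for dcr1+, which encodes Dicer, and the septin gene spn6+ (1903 bp, 20 bases between the stop codons). The 3' UTR of dcr1+, with 1217 bases, covered 99.3% of the spn6+ coding sequence, and that of spn6+, with 706 bases, covered 16.6% of dcr1+. hrr1+ (1420 bases) covered all of dms1+, and cid12+, a poly(A) polymerase gene of the same complex, had 3401 bases and covered all of naa50+. For stc1+, which links RNAi to the H3K9 methyltransferase complex, the coverage was the opposite. Its own 3' UTR had 193 bases, and that of mug30+ (843 bases) covered its whole coding sequence of 648 bases. rdp1+ and ade3+ did not overlap and were 29 bp apart, and ago1+, the Argonaute gene, was 17 bp from mmi1+, whose product removes meiotic mRNAs. ers1+ and ipi1+ overlapped by 61 bp and arb2+ and crb3+ by 24 bp. Thus within 1 pathway the pairs ranged from a narrow gap to full coverage.

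Among the chromatin genes of this list, rik1+, a subunit of the H3K9 methyltransferase complex, overlapped SPCC11E10.09c by 3703 bp. The 3' UTR of the latter had 3422 bases and covered 94.1% of the rik1+ coding sequence, while that of rik1+ (616 bases) covered 6.19% in return. raf2+ was 46 bp from erv29+. In the SHREC deacetylase complex, clr2+ was 9 bp from mrps18+, clr3+ was 2367 bp from rpl4301+, and mit1+ overlapped nbr1+ by 40 bp, and clr1+ is followed by a gene of the same strand. sir2+ overlapped zrt1+ by 114 bp. swi6+ itself (609 bases), clr4+ (2579 bases), which encodes the methyltransferase, chp1+ (167), chp2+ (70), tas3+ (473), and epe1+ (651) are not in convergent pairs.

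**Figure D3:**
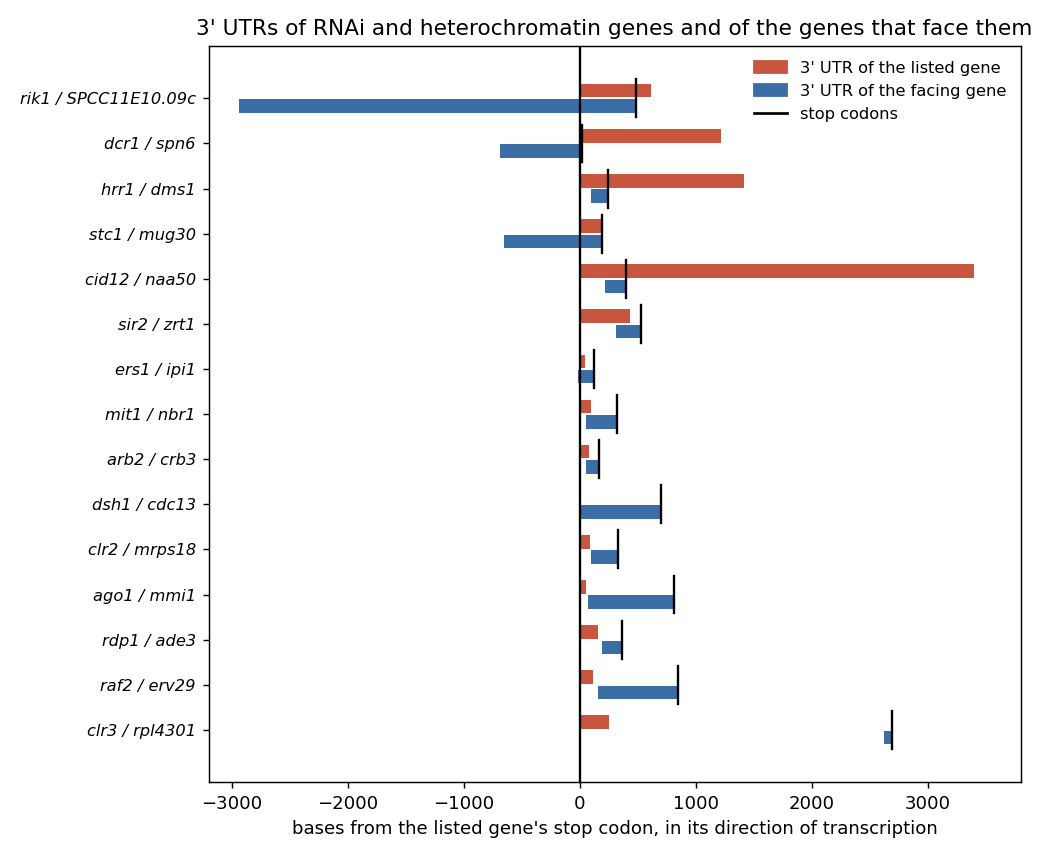
Map of the 15 convergent pairs of the RNAi and heterochromatin list, ordered by overlap from top to bottom, with bases from the stop codon of the listed gene in its direction of transcription on the horizontal axis. Red bars are the 3' UTRs of the listed genes, blue bars those of the facing genes, and black ticks the stop codons, and a bar that passes the other gene's tick covers its coding region, as for rik1, dcr1, hrr1, stc1, and cid12.

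Other genes named in the study or in the genotypes of its strains were mixed. adh1+, the alcohol dehydrogenase gene, overlapped SPCC13B11.02c by 2894 bp, and the 3406-base 3' UTR of the latter covered all 1053 coding bases of adh1+. cnp1+, which encodes the centromeric histone CENP-A, had 1200 bases and covered all of pth3+ (489 coding bases). cid14+ and gms2+ overlapped by 88 bp. In contrast, act1+ and mei4+ were separated by 199 bp, leu1+ and apc10+ by 124 bp, ura4+ and tam14+ by 332 bp, and ade6+ and vtc4+ by 304 bp. tam14+ has no 3' UTR line, so that its gap is measured from its stop codon.

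Genes of cohesin and of 3' end formation were mixed as well. Only 3 of 11 cohesin genes were convergent and all of them overlapped: rad21+ (1181 bases, which cover 48.8% of pof3+), psc3+ (1024 bases, which cover all of SPAC607.02c), and eso1+ (199 bp shared with SPBC16A3.12c). Of 23 genes of cleavage, polyadenylation, and termination, 11 were convergent and 7 overlapped. Over all genes, 54.5% were convergent and 60.9% of these overlapped, beside 47.8% and 63.6% for the 3' end formation genes and 27.3% and 100% for the few cohesin genes. iss1+, the homologue of the polyadenylation factor Fip1, covered all 423 coding bases of cum1+, and ppn1+ covered 31.3% of sly1+. The poly(A) polymerase gene pla1+ shared 45 bp with erg9+, pcf11+ 180 bp with rnh201+, red1+ 68 bp with asa1+, and cft2+ 37 bp with ngl1+. dhp1+, the gene of an exonuclease that acts in termination, shared 154 bp with cnt6+. Its 3' UTR of 1773 bases also spans the whole mRNA of SPAC26A3.11, a pair not counted as convergent by start. rna14+, dis2+, seb1+, and mmi1+ were separated from their partners by 333, 468, 86, and 17 bp.

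Ribosomal protein genes had short 3' UTRs. The 131 genes had a median of 122 bases, and 1 of them reached 1000 bases. Of their 70 members in convergent pairs, 23 (32.9%) overlapped, beside 60.9% of all. Their 3' UTRs came from mRNA records in 17.6% of cases, beside 14.1% of all genes, and whether the source accounts for the difference was not tested. In the core histone genes lengths were narrow, from 250 to 439 bases except htb1+ with 813, and 2 of 7 convergent members overlapped: htb1+ shared 258 bp with sec5+ and hht3+ shared 46 bp with rav1+. The 88 mug and meu genes with a line, named for expression in meiosis, had a median of 277.5 bases, and 33 of 55 convergent members (60%) overlapped. Of the genes often used as models of 3' ends, nmt1+ has no 3' UTR line and its gap to gut2+ (93 bases) was 1068 bp. fbp1+ (439 bases) was 1670 bp from mfr1+, which has no 3' UTR line either.

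Around the centromeres, the nearest convergent pair lay 1490 bp from the repeats on the right of centromere 1, which is emc5+ and rad50+ (414 and 78 bases of 3' UTR). On the left side prm1+ and lys1+ lay 10107 bp away. At centromere 2 these were toa1+ and ngg1+, 15248 bp to the left with an overlap of 97 bp, and yox1+ and rec6+, 3405 bp to the right with an overlap of 724 bp, in which rec6+, a meiotic recombination gene, was entirely covered. At centromere 3 they were chk1+, a checkpoint kinase gene, and meu27+ (716 bp shared, 6708 bp to the left), and cmc2+ and cbp3+ (153 bp apart, 7464 bp to the right). chk1+ is 1 of the plus-strand genes whose mRNA line stops short, and its whole 3' UTR of 2615 bases covered 97.6% of the meu27+ coding sequence. Of the 6 pairs, 5 overlapped, and in the other, cmc2+ and cbp3+, cmc2+ has no 3' UTR line. Within 50 kb of the centromeric repeats 19 of 33 pairs (57.6%) overlapped. Within 50 kb of the ends of chromosomes 1 and 2 it was 2 of 17 (11.8%). Only 4 of these 17 pairs have a 3' UTR line for both genes, beside 89.7% of all pairs, and 0 of the 4 overlapped. Within 100 kb the numbers were 44 of 74 and 5 of 33. Near the ends, 15 of the 33 pairs had both lines. Of these 15 pairs 3 (20%) overlapped, beside 65.1% of all pairs with both lines. The outermost pairs of both chromosomes, SPAC212.04c and SPAC212.03, SPAC750.01 and SPAC750.02c, SPBC1348.05 and SPBC1348.06c, and SPBCPT2R1.03 and SPBCPT2R1.04c, were separated by 538, 3420, 602, and 780 bp, and in each at least 1 gene lacks a 3' UTR line.

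AATAAA was the most frequent hexamer in the last 40 bases. Of 4655 3' UTRs with at least 40 bases, 679 (14.6%) held AATAAA there, followed by ATTTTT in 562 and ATAAAA in 538. On the opposite strand of the same windows the share was 9.41%, in the 40 bases before the start codon 5.01%, in the middle 40 coding bases 1.76%, and in the 40 bases after the annotated end 7.26%. The position was not uniform. Among mRNA-record 3' UTRs of at least 100 bases, 9.46 matches per 100 3' UTRs began in the bin from 30 to 21 bases before the end, against 1.86 in the bin from 50 to 41 bases before. For the transcriptome reference the values were 6.34 and 3.50. Over the last 40 bases the shares were 18.9% of 660, 14.4% of 3804, and 3.82% of 131 for mRNA records, the reference, and ends set by hand. For the ends set by hand, 14 of 131 (10.7%) held the hexamer in the 40 bases after the end, beside 7.33% for the reference. A match is a string of letters and no evidence that the site is used.

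**Figure D4:**
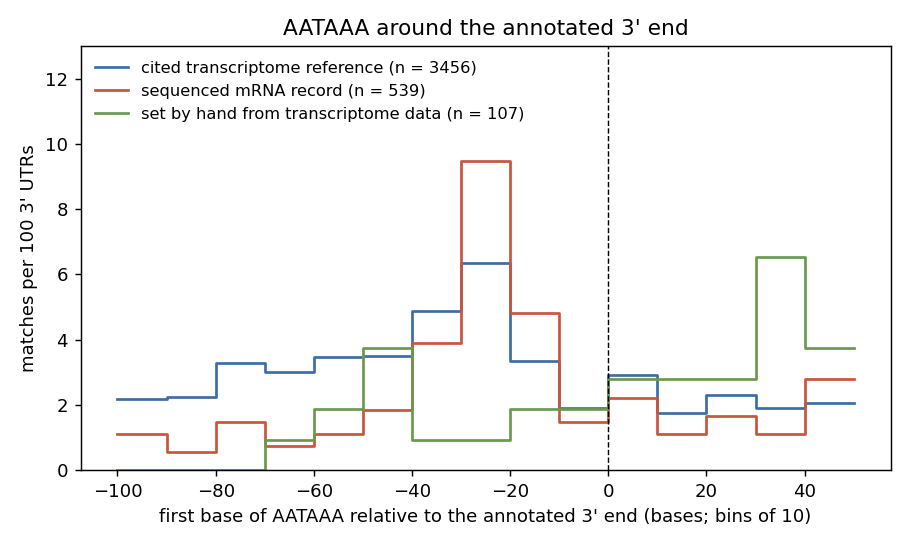
Matches of AATAAA per 100 3' UTRs (vertical axis) by the position of the first base relative to the annotated 3' end (horizontal axis, bins of 10 bases, dashed line at the end) for the 3 largest sources, in 3' UTRs of 100 bases or more. Both the mRNA-record and the reference lines peak in the bin from 30 to 21 bases before the end (9.46 and 6.34). The line of the 107 ends set by hand is highest after the end, where its highest bin (30 to 39 bases) holds only 7 matches.

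Over the whole 3' UTR the order of the strands was the reverse. AATAAA occurred 1.62 times per kb of 3' UTR on the strand of the mRNA, 2.63 times on the opposite strand, and 0.501 times per kb of coding sequence. The hexamer in the last 40 bases was found in 16.99% of 1642 3' UTRs of overlapping convergent pairs, 15.5% of 948 in pairs that do not overlap, and 12.2% of 2062 before a tandem gene. Of other motifs, chosen after the annotation was examined and searched on both strands, TATTTAT, the AU-rich element bound by the zinc finger protein Zfs1, occurred in 22.6% of 3' UTRs (0.669 per kb, 0.434 on the opposite strand, 0.198 in coding sequence). TGTANATA, the element of Puf proteins, was found in 10.1% (0.249, 0.219, and 0.0735 per kb). TTAAAC, the core of the element that Mmi1 binds, was found in 19.0% (0.545, 0.737, and 0.336 per kb), and in 15.9% of the 88 mug and meu 3' UTRs.

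Other annotated RNAs rarely lay within 3' UTRs on the same strand. A noncoding RNA line (misc_RNA) was opposite 573 of 4749 3' UTRs (12.1%) and on the strand of 93 (1.96%), and 14 overlapped a tRNA, rRNA, snRNA, or snoRNA and 18 an LTR. Of 123 convergent pairs with a misc_RNA line in their gap or overlap, 48 (39.0%) overlapped, and of 13 pairs with a tRNA gene there, 0 did, beside 60.9% of all convergent pairs. A wide gap has more room for such a line than a narrow gap or a short overlap. The choice of these pairs therefore bears on the shares, which cannot be read as an effect of the line.

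The file also lists 17 poly(A) sites, of which 11 name a gene with a 3' UTR on the same strand. Of these, 3 coincided with the annotated end (mdm28+, snd1+, and 1 of 2 sites of spk1+) and 6 lay within 10 bases of it. The others lay before it, by 35 bases in pkl1+, 110 in rad24+, 117 at the other site of spk1+, 202 in rpl3202+, and 373 in eaf1+. For php3+ and pac2+, which have no 3' UTR line, the sites were 396 and 686 bases beyond the end of the mRNA line. The sites are too few to set the precision of the other ends.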

How the data were processed

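The series holds 2 H3K9me2 ChIP-seq libraries (swi6∆, replicates 1 and 2). The deposited file is a GeneDB annotation, whose first and last bases of features are positions counted from 1. Its score column is empty. How the authors aligned reads, and the depth, are not given in the sources used here. swi6+ and clr4∆ libraries were not analysed here.

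3' UTR lines were tied to mRNA lines by identifier (1 gene, prl65, by its systematic identifier) and lengths summed per gene. Overlaps were counted from mRNA lines, with a minimum of 1 bp, and coding coverage from coding lines. RefSeq 3' ends were identical for 5066 of 5134 matched mRNAs, and thus RefSeq is not an independent annotation. Gene names are RefSeq symbols. In the list of 3' end formation, 4 names (fip1, clp1, hrp1, and rna15) were left out because the symbol belongs to another or a doubtful gene, and nmt2 was not found. Of the 10 abutting pairs, 5 are named, in order of position. Other genes named are the longest, shortest, most overlapping, nearest to centromeres and ends, or on lists. Among the shortest 3' UTRs, 1 of the 5 that the rule names is not reported here. Members and lists were chosen with earlier results of these data known. The functions were tested on simulated data. Scripts ran in Python 3.11.15 (with scipy 1.17.1 for intervals, matplotlib 3.10.9 for plots, and numpy 2.4.6 for base arrays).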

Additional observations from a re-analysis of the deposited data

How the results depend on the processing

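Of 26 alternatives to 5 results, 13 stayed within the 95% binomial interval of the value (for the count of 3' UTRs on coding bases, within 1.5 times of it). The median 3' UTR length was 260 to 263 bases under the alternatives set at the outset. These could hardly move it, although they count among the 13. Genes with a coding line were all 4753, other settings changed only the 50 genes with several lines, and RefSeq is not independent. The median was 176 bases with mRNA-record 3' UTRs only, an alternative added after seeing the data. The share of overlapping convergent pairs, 60.9%, was 65.1% with a 3' UTR line for both genes, 58.0% without nested mRNAs, 64.0% without noncoding RNA lines between, and 50.6% with at least 50 bp. It was 71.8% with both ends from the transcriptome reference and 11.9% with both from mRNA records, both added after seeing the data. The median overlap of 177 bp was 140 bp without nested mRNAs. The share with AATAAA, 14.6%, was 19.6% in the last 60 bases, 8.68% from 30 to 10 bases before the end, 21.1% with ATTAAA allowed, 16.4% in convergent genes, and 18.9% with mRNA-record ends (added). No paired analysis was possible because the file holds no value of either replicate. Intervals cover counting only. Ends are single positions per gene, and alternative poly(A) sites, expression, and read-through are not in these values.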

Other observations

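Overlaps of tandem mRNAs, in which the 3' UTR of one gene runs into the next gene of the same strand, had an unusual distribution of lengths. Of 319 such overlaps, 164 (51.4%) were 60 to 70 bp long, 7 were 71 to 100 bp, and 15 exceeded 200 bp. A single value, 67 bp, was found in 59 pairs. In convergent overlaps 36 of 855 (4.21%) were 60 to 70 bp. In 295 of the 319 pairs the upstream 3' UTR cites the transcriptome reference, beside 3870 of all 4753 genes with a 3' UTR. The share over all tandem pairs was not taken. In 11 pairs the upstream 3' UTR reaches coding bases of the downstream gene.

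The hexamer AATAAA was more frequent per kb in the 3' UTRs of ribosomal protein genes (3.23) than on their opposite strand (2.05), and nearly absent from their coding sequences (0.0612 per kb), whereas over all 3' UTRs the opposite strand had the higher density. The share of 3' UTRs with the hexamer was not higher, 41.2% of these 131 beside 43.8% of all 4749. Their median length was 122 bases, beside 262 of all, and the part of length in the density was not tested.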
